A study of Arabidopsis thaliana with 148 samples.

Results

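The genes described here are 10 Arabidopsis thaliana genes of jasmonate synthesis and signalling, taken by their locus identifiers from the 38194 genes of the count tables of the series. They are the synthesis genes LOX2 (AT3G45140), AOS (AT5G42650), AOC1 (AT3G25760), AOC2 (AT3G25770) and OPR3 (AT2G06050), the transcription factor gene MYC2 (AT1G32640), and the repressor genes JAZ1 (AT1G19180), JAZ5 (AT1G17380), JAZ9 (AT1G70700) and JAZ10 (AT5G13220). All 10 were present in both tables and passed the filter on low counts in the fits of total and of ribosome-bound mRNA, while JAZ10 did not pass it in the fit of total mRNA controls alone. In every group the seedlings carried p35S:HF-RPL18, a tagged ribosomal protein expressed from the 35S promoter. Tagged ribosomes can be pulled down with the mRNA on them (translating ribosome affinity purification, TRAP), so TRAP mRNA stands for messages on ribosomes and total mRNA for all polyadenylated messages. Whole seedlings were kept at 22 °C, with 12 h of light and 12 h of dark a day for the first 10 days and constant light from day 11, and were treated on day 13. In the time course, separate sets received 1 h at 37 °C ending at Zeitgeber time (ZT, hours from a reference dawn) 48, 51, 54, 57, 60, 63, 66 or 69, and controls stayed at 22 °C and were taken at these times and at ZT72. In the recovery experiment, seedlings were heated from ZT53 to ZT54 and returned to 22 °C for 0, 1, 3 or 6 h, each with controls of the same time. The 148 libraries formed 50 groups, of which 48 had 3 libraries and 2 had 2 (total mRNA control ZT57 and TRAP control ZT60).

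In RefSeq TAIR10.1 the synthesis genes lie with LOX2 at chr3:16525245-16529352 (plus strand), AOS at chr5:17097564-17099595 (minus strand), AOC1 at chr3:9403779-9405338 (plus strand), AOC2 at chr3:9406669-9408071 (plus strand) and OPR3 at chr2:2359114-2362375 (minus strand). AOC1 and AOC2 are neighbours. The regulators lie with MYC2 at chr1:11798119-11801407 (minus strand), JAZ1 at chr1:6621777-6623668 (plus strand), JAZ5 at chr1:5955155-5957511 (minus strand), JAZ9 at chr1:26654529-26657350 (plus strand) and JAZ10 at chr5:4218786-4221077 (plus strand).

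Jasmonates are lipid-derived hormones of wounding, defence, fertility and stress. Synthesis starts in the plastid, where lipoxygenases such as LOX2 oxygenate linolenic acid, AOS makes an unstable allene oxide from the product, and allene oxide cyclases such as AOC1 and AOC2 close its ring to oxophytodienoic acid. OPR3 reduces that compound in the peroxisome, beta-oxidation shortens it to jasmonic acid, and JAR1 joins jasmonic acid to isoleucine to give the active hormone. JAZ proteins bind MYC2 and related factors and hold their target genes down. The hormone joins JAZ proteins to COI1, the F-box receptor, and they are then degraded. MYC2 is known to act on JAZ genes and on synthesis genes, so the pathway feeds back on itself.

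The stretches upstream of AOS and JAZ10 are shown because AOS fell and JAZ10 rose after heat at all 8 times in both kinds of RNA, as described below, and because among the 10 genes these were the ones with a match to either motif searched. The sequences are the 300 bases before the annotated gene start in RefSeq TAIR10.1, written 5′ to 3′ on the strand of the gene, and lie at chr5:17099596-17099895 on the minus strand for AOS and at chr5:4218486-4218785 on the plus strand for JAZ10. Capitals mark the G-box CACGTG, a motif that MYC2 is known to bind, in AOS, and the heat shock element core TTCNNGAA in JAZ10.
AOS: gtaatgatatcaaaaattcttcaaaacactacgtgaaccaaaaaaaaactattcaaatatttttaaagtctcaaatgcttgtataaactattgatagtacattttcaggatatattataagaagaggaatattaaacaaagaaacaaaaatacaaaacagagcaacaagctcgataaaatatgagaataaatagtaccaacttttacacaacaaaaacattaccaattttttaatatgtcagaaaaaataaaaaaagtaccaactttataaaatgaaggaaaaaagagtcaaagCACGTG
JAZ10: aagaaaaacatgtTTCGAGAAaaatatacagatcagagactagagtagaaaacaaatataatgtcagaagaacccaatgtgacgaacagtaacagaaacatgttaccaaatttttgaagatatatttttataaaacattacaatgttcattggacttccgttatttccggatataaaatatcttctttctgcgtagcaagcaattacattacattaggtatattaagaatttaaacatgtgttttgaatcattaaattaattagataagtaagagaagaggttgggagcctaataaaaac
The G-box of AOS starts 6 bases before the gene. The match of JAZ10 starts 287 bases before the gene. Of 27443 promoters of this length, 7.09% held CACGTG, 9.38% held TTCNNGAA and 19.3% held TTCNNGAA or the reverse order GAANNTTC. All 3 motifs read the same on both strands. No other of the 10 genes had CACGTG or either heat shock element in this window, which says only that these letters are not in it.

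Library totals spanned 1396305 to 13706459 counts in the time course, with a median of 7158393.5. Those of the recovery experiment spanned 3080248 to 8745785 counts, with a median of 6081310. Depth fell within the time course, from a median of 8873006 at ZT48 to ZT57 to 4123844 at ZT60 to ZT72 in total mRNA and from 9398937 to 5902330.5 in TRAP mRNA, so the heat results over times are also given within each of these 2 blocks. Values below are CPM, counts scaled to a common library total, after TMM scaling, a method that sets libraries to a common level by the bulk of their genes. TMM factors of the time course split by treatment. They were 1.061 to 1.624 in controls and 0.5835 to 0.8393 after heat in total mRNA. In TRAP mRNA they were 1.34 to 1.679 against 0.5835 to 0.7374. Every heat effect below, its sign included, is therefore relative to the bulk of genes. The alternatives tried, RLE scaling and DESeq2, also scale this way. Nothing in the labels says that libraries of a group came from separate cultures, and the p-values therefore rest on a spread between libraries that may be technical. In whole seedlings, fewer cells of a type and less RNA per cell cannot be told apart. The heat-induced genes checked, among them HSP101, rose in 5 of 5 cases in both kinds of RNA: their summed level was 22890 to 33040 CPM in heated total mRNA libraries and 23.1 to 565 CPM in controls. The highest of these controls was ZT54 replicate 2, and an alternative left out this library and ZT48 replicates 1 and 3. In the recovery experiment the 6 h control replicate 2 stood apart from the other 2 controls of its group in the heat-induced sum (154 CPM against 47.3 and 38.3 in total mRNA, 209 against 47.0 and 39.6 in TRAP mRNA) and in several of the genes described here, so the 6 h results of genes whose call turns on it are given with and without it. Leaf markers were 2 higher and 1 not called of 3 after heat, and their sum overlapped (9720 to 21200 CPM in total mRNA controls, 12000 to 28290 after heat). Root markers in total mRNA were 1 higher, 2 lower, 2 not called and 1 not tested of 6 (NRT2.1, at 0 to 4 reads a library), with sums of 793 to 1557 CPM in controls and 916 to 1616 after heat. Touch-responsive genes, which also mark handling, moved with heat: 4 of 6 were higher (TCH2, TCH3, TCH4, ZAT10), WRKY40 was lower and ERF13 was not tested, in both kinds of RNA. Their sum was 30.3 to 47.2 CPM in total mRNA controls and 130 to 314 CPM after heat, and 36.3 to 68.3 against 240 to 834 CPM in TRAP mRNA. The part of handling in the heat results below was not tested.

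In the 22 °C controls a wave of 24 h was called for all synthesis genes, JAZ5 and JAZ9 over the 1 day sampled. A wave of 24 h was called for 7 of the 9 members tested in total mRNA, against 51.3% of all genes tested, and for 9 of 10 in TRAP mRNA, against 61.8% (edgeR quasi-likelihood F test; here and below a call is a Benjamini-Hochberg adjusted p below 0.05). AOC2 had the widest wave of the members in total mRNA, with a mean of 25.0 ± 0.64 CPM (SD, n = 3) at ZT48 and 136 ± 11.3 CPM (SD, n = 3) at ZT60, a ratio of 5.44. LOX2 went from 77.4 ± 3.70 CPM (SD, n = 3) at ZT54 to 253 ± 45.0 CPM (SD, n = 3) at ZT66, a ratio of 3.27. JAZ9 went from 16.7 ± 0.304 CPM (SD, n = 2) at ZT57 to 55.7 ± 3.56 CPM (SD, n = 3) at ZT72, a ratio of 3.34. The fitted peaks in total mRNA fell in the order AOC2 (ZT61.7), OPR3 (ZT64.3), LOX2 (ZT65.0), AOC1 (ZT67.1), AOS (ZT67.8), JAZ5 (ZT68.7) and JAZ9 (ZT69.1), all in the subjective night and all in the block of lower depth. Waves were not fitted within blocks. With library size as a covariate 7 waves were called in total and 8 in TRAP mRNA, where JAZ1 was lost. The wave of JAZ5 in total mRNA (adjusted p = 0.0115, edgeR quasi-likelihood F test) was lost without replicate 3 (0.0751). The log2 amplitudes were 1.00 for AOC2, 0.857 for LOX2, 0.738 for JAZ9, 0.583 for JAZ5, 0.513 for AOC1, 0.489 for OPR3 and 0.413 for AOS. In TRAP mRNA the same 7 genes peaked between ZT61.2 (AOC2) and ZT68.9 (JAZ9), each within 1 h of its peak in total mRNA.

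MYC2 and JAZ1 were flat or close to it, while counts of JAZ10 were too low to say. JAZ10 was not tested for a wave in total mRNA, where its control group means spanned 0.39 to 0.885 CPM, a ratio of 2.27. In total mRNA no wave was called for MYC2 (adjusted p = 0.0822) or JAZ1 (adjusted p = 0.135), whose control group means spanned 19.1 to 23.8 CPM and 8.06 to 11.2 CPM. In TRAP mRNA shallow waves were called for MYC2 (log2 amplitude 0.167, peak ZT61.3) and for JAZ1 (0.154, peak ZT59.8, adjusted p = 0.0436 by the edgeR quasi-likelihood F test). The call of JAZ1 was lost without any 1 of the replicate numbers and under 3 other settings, among them another scaling. JAZ10 had no called wave in TRAP mRNA (adjusted p = 0.658) at 2 to 12 counts a control library from ZT48 to ZT69. Since 1 day was sampled, a wave cannot be told from a drift: at ZT72 AOC1 and AOC2 in total mRNA were still 0.62 ± 0.18 and 0.92 ± 0.17 log2 units (SE) above ZT48, where 12.7% of all genes were called and 7.96% were higher. In TRAP mRNA LOX2, AOC1, AOC2 and JAZ9 were higher by 0.35 to 0.65, where 9.83% were called and 5.91% were higher.

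**Figure D1:**
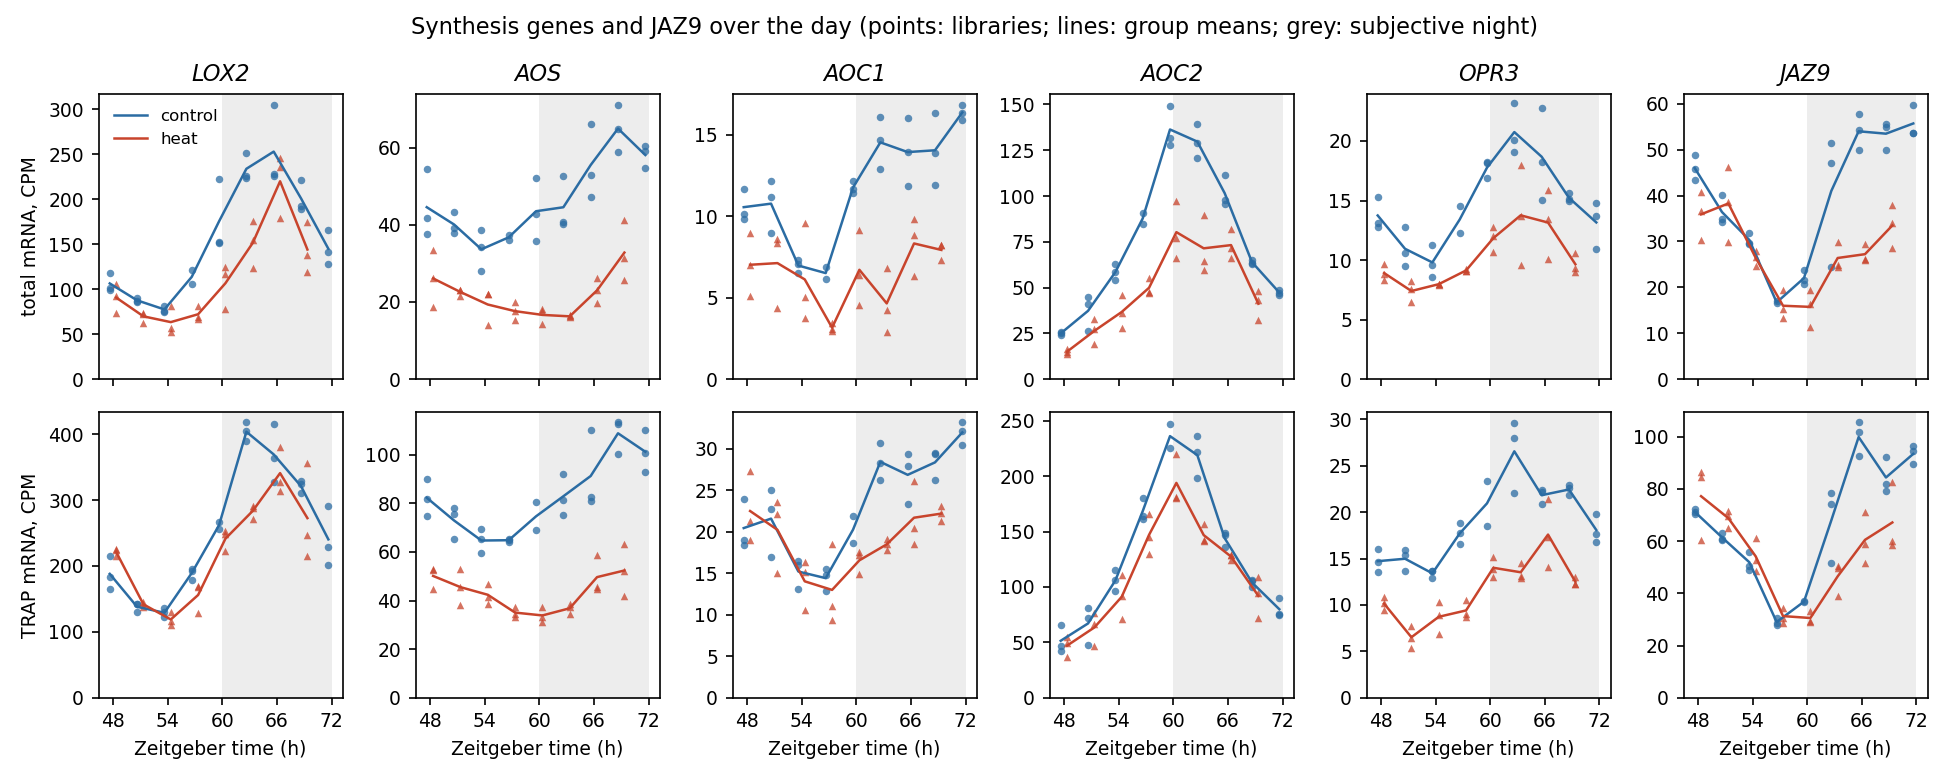
CPM of AOS, AOC1, AOC2, LOX2, OPR3 and JAZ9 against Zeitgeber time in hours, for total mRNA (top) and TRAP mRNA (bottom). Each point is 1 library, lines join group means, and grey marks the subjective night. AOC2 controls rose from 25.0 CPM at ZT48 to 136 CPM at ZT60 in total mRNA, and the heated AOS libraries lay below the controls of their time throughout.

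After 1 h at 37 °C the synthesis genes fell in total mRNA and JAZ10 rose. Averaged over the 8 times, 8 of the 10 genes were lower, 1 was higher and 1 was not called, where 43.9% of all genes tested were lower, 36.9% higher and 80.7% called in all. The median change of the 10 was -0.43 on the log2 scale, beside -0.08 for all genes. With 80.7% of all genes called, a call by itself says little about these 10. Within ZT48 to ZT57 alone 8 genes were called, where 76.5% were, and within ZT60 to ZT69 9 were, where 70.5% were. At the 8 single times in order, 57.8%, 56.5%, 51.5%, 50.3%, 47.6%, 44.1%, 44% and 42.8% of all genes were called.

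The 5 synthesis genes all fell in total mRNA, with AOS the most. Over all 8 times, AOS was at 28.1 to 71.1 CPM in 23 control libraries (median 41.7) and at 13.9 to 41.3 CPM in 24 heated libraries (median 20.7). Of the 24 heated libraries, 21 lay below every control. The mean change of AOS was -1.07 ± 0.06 (log2 ± SE; edgeR quasi-likelihood test, adjusted p = 1.92e-20), and it was called at each of the 8 times, from -0.78 ± 0.16 at ZT48 to -1.45 ± 0.21 at ZT63. At ZT63 the controls held 40.8, 40.1 and 52.8 CPM of AOS and the heated libraries 16.6, 16.2 and 16.0 CPM, with no overlap. AOC1 fell by 0.79 ± 0.09 on the log2 scale on average and at 7 of 8 times, with controls of 16.1, 12.9 and 14.7 CPM and heated libraries of 2.88, 4.27 and 6.81 CPM at ZT63. At ZT54 its heated libraries spread from 3.74 to 9.61 CPM around controls of 6.54 to 7.31 CPM, and it was not called. AOC2 changed by -0.68 ± 0.06 and was called at 8 of 8 times. OPR3, the peroxisomal reductase, changed by -0.54 ± 0.06 and was called at 7 of 8 times, with ZT54 again the exception. LOX2 changed by -0.44 ± 0.06 and was called at 4 of 8 times. At ZT66, near its control peak, LOX2 was at 228, 226 and 305 CPM in controls and 245, 236 and 179 CPM after heat, which overlap. With 1 replicate number left out, single-time calls were lost for AOC1 at ZT48, ZT51, ZT60 and ZT66, for AOC2 at ZT51, ZT66 and ZT69, for LOX2 at ZT69 and for OPR3 at 6 of its 7 times, and for AOS at none. AOC1 and AOC2 share 90.3% of their coding sequence with an identical run of 47 bases. AOC3, a further cyclase gene, shares 83.2% with AOC1 (a run of 73 bases) and 82.4% with AOC2 (50 bases), so reads divided among the 3 genes are uncertain.

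Among the regulators JAZ10 stood out in total mRNA. JAZ10 counts were low in controls, 1 to 15 reads a library (0.122 to 1.41 CPM, median 0.567), and 4 to 59 reads after heat (1.83 to 9.02 CPM, median 3.55). All 24 heated libraries lay above every one of the 23 controls. JAZ10 did not pass the filter on low counts in the fit of total mRNA controls alone and was tested here because of its heated libraries. The mean change of JAZ10 was 2.54 ± 0.17 (log2 ± SE; edgeR quasi-likelihood test, adjusted p = 1.86e-23), between 2.19 ± 0.51 at ZT63 and 3.23 ± 0.35 at ZT48. At ZT48 the controls of JAZ10 held 0.350, 0.929 and 0.980 CPM and the heated libraries 9.02, 6.54 and 6.65 CPM. The other regulators moved the other way or were not called. JAZ9 changed by -0.41 ± 0.06, JAZ1 by -0.39 ± 0.07 and MYC2 by -0.34 ± 0.05, each with an adjusted p of 2.29e-06 or below in the same test. JAZ5, at 0 to 29 reads a library in total mRNA, gave -0.09 ± 0.21 (adjusted p = 0.677 by the edgeR quasi-likelihood test) and was called at none of the 8 times.

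MYC2 carries a further limit. The annotation places AT1G32630 on the opposite strand over 3241 of the 3289 bases of MYC2, and over the 148 libraries the count of AT1G32630 was 1.00 to 1.27 times that of MYC2 (median 1.07). The log2 counts of the pair had a Pearson correlation of 0.998 over these libraries, which share their depth. Whether the counting used strand is not given in the sources used here. The values of MYC2 therefore cannot be told apart from those of AT1G32630.

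In TRAP mRNA the 5 synthesis genes were again lower on average, while JAZ1 was higher. Over the 8 times 7 genes were lower and 3 higher (JAZ1, JAZ5 and JAZ10), where 45.5% of all genes tested were lower, 38.1% higher and 83.6% called in all. The median change was -0.20 for the 10 genes and -0.09 for all genes. Within ZT48 to ZT57 alone, 6 of the 10 were called, where 78.7% of all genes were: LOX2 (-0.03 ± 0.06), AOC1 (-0.06 ± 0.08), AOC2 (-0.15 ± 0.09) and JAZ9 (0.11 ± 0.06, adjusted p = 0.102 by the edgeR quasi-likelihood test) were not. Within ZT60 to ZT69, 9 were called, where 75.5% were, with JAZ5 the exception. At the 8 single times in order, 60.2%, 59.6%, 58.7%, 56.6%, 50.4%, 56.3%, 51.3% and 55.3% of all genes were called.

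AOS and OPR3 held the largest falls in TRAP mRNA. AOS changed by -0.89 ± 0.05 on average (log2 ± SE; adjusted p = 1.73e-26, edgeR quasi-likelihood test) and was called at all 8 times, and 23 of its 24 heated libraries lay below every control. OPR3 changed by -0.74 ± 0.05 and was called at 7 of 8 times, furthest at ZT51 (-1.20 ± 0.15), where controls held 13.7, 15.9 and 15.3 CPM and heated libraries 7.74, 6.45 and 5.38 CPM. The other synthesis genes changed little: AOC1 and AOC2 by -0.23 ± 0.06 each, called at 1 of 8 times, and LOX2 by -0.14 ± 0.04, called at 2.

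JAZ1 and JAZ10 rose in TRAP mRNA. JAZ1 was at 7.95 to 15.8 CPM in 23 TRAP controls (median 9.65) and at 8.80 to 20.6 CPM in 24 heated libraries (median 14.7), so the pooled ranges overlap. The median raw count of JAZ1 was 118 in these controls and 78 after heat, so its rise is relative to the bulk of genes. Its mean change was 0.57 ± 0.05 (log2 ± SE; adjusted p = 1.65e-14, edgeR quasi-likelihood test). At 6 of the 8 times all heated libraries of JAZ1 lay above all controls, and these 6 were the times called. The call at ZT63 (0.43, adjusted p = 0.0191, edgeR quasi-likelihood test) was lost without any 1 of the 3 replicate numbers. At ZT48 the controls of JAZ1 held 8.76, 8.88 and 8.17 CPM and the heated libraries 14.4, 18.02 and 19.0 CPM. At ZT57 controls held 11.5, 11.4 and 8.51 CPM and heated libraries 8.80, 10.8 and 12.3 CPM, which overlap. JAZ10 rose by 2.096 ± 0.172 on average (adjusted p = 4.48e-17, edgeR quasi-likelihood test) and was called at all 8 times, and 21 of its 24 heated libraries lay above every control. Its call was lost at ZT54 without replicate 1, at ZT60 without replicate 1 or 2 and at ZT63 without replicate 3. JAZ5 was called on average (0.40 ± 0.13) and at 1 single time, ZT54, where controls held 1.39, 0.998 and 0.790 CPM and heated libraries 1.84, 1.95 and 2.79 CPM. Its mean call was lost without replicate 1 and its call at ZT54 without replicate 3. The median raw count of JAZ5 was 15 in the TRAP controls and 8.5 after heat, so its rise too is relative to the bulk of genes. MYC2 changed by -0.27 ± 0.05 and was called at the 4 times from ZT54 to ZT63.

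**Figure D2:**
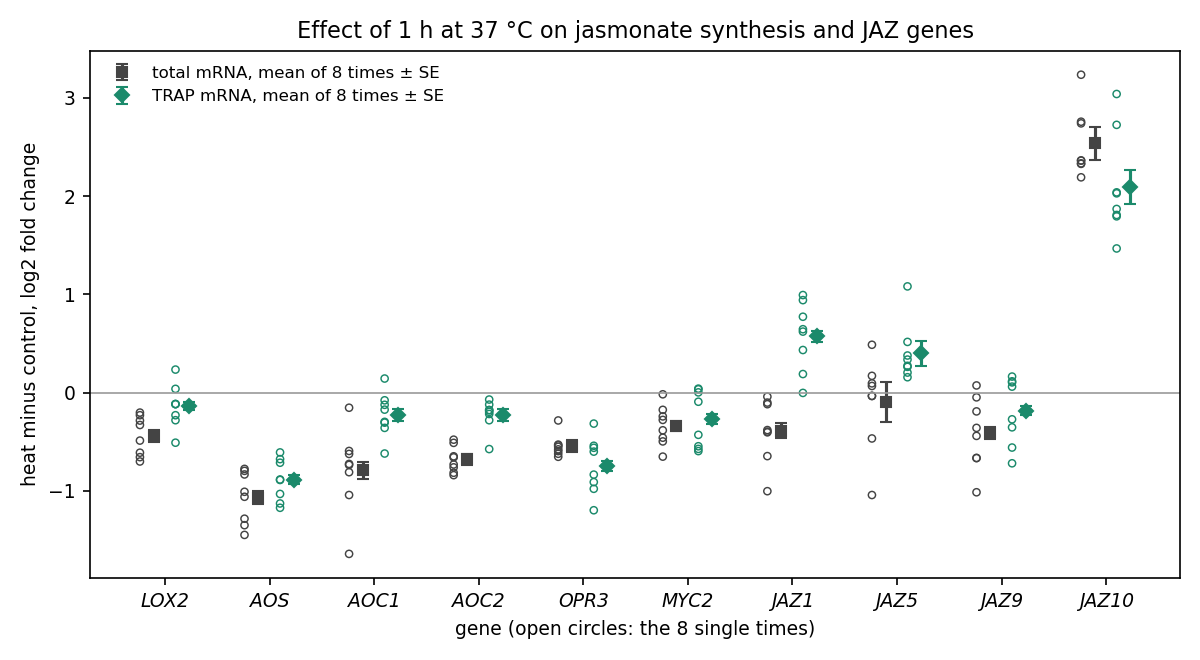
Log2 fold change of heat minus control for the 10 genes in total and TRAP mRNA. Filled points are means over the 8 times with their SE, and open circles are single times. JAZ10 lies at 2.54 and 2.096, AOS at -1.07 and -0.89, and JAZ1 lies below 0 in total mRNA (-0.39) and above it in TRAP mRNA (0.57).

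The heat effect was then compared between the 2 kinds of RNA in 1 model. Each kind is scaled to its own total, so these are relative differences. Total and TRAP libraries of the same group and number had deviations from their group means that correlated over 0.1 in 27 of 49 pairs, and the model treats them as independent. How this bears on AOS, JAZ5 and OPR3, whose p-values lie near the threshold, was not tested. The difference, TRAP minus total, was called for 6 of the 10 genes, all with the TRAP value higher, where 21.5% of all genes tested were higher, 14.1% lower and 35.6% called in all. The median over all genes was 0.06. JAZ1 had the largest difference of the 10, 0.98 ± 0.09 (log2 ± SE; adjusted p = 3.03e-17, edgeR quasi-likelihood test), and was called at 6 of the 8 single times with 0.83 to 1.47. At these 8 times in order, 6.27%, 2.93%, 4.3%, 4.6%, 3.15%, 2.64%, 1.95% and 1.64% of all genes were called. Its mean level in TRAP relative to total mRNA was -0.08 ± 0.06 in controls, not called, and 0.90 ± 0.07 after heat. The difference was 0.59 ± 0.11 for AOC1, 0.48 ± 0.09 for AOC2 and 0.32 ± 0.08 for LOX2, each with an adjusted p of 5.11e-04 or below. JAZ9 gave 0.25 ± 0.08 (adjusted p = 0.0059 in the same edgeR test), which was lost without replicate 1 or replicate 3. AOS gave 0.20 ± 0.08 (adjusted p = 0.039 in the same edgeR test), which was lost without replicate 1 or replicate 2, with no filter on low counts, with RLE scaling and with DESeq2. OPR3 gave -0.18 ± 0.08 (adjusted p = 0.0709), JAZ10 -0.43 ± 0.26 (0.194), MYC2 0.09 ± 0.07 (0.374) and JAZ5 0.52 ± 0.23 (0.0706 by the same edgeR test), none of them called.

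The same model gives the levels on ribosomes relative to total mRNA. In controls 7 of the 10 genes were higher in TRAP mRNA, by 0.15 ± 0.05 (OPR3) to 0.79 ± 0.06 (AOC1) on the log2 scale, where 76.2% of all genes tested were called and 38.5% were higher. After heat 8 were higher and JAZ10 was lower, where 72.8% were called, 38.3% higher and 34.4% lower. AOC1 reached 1.38 ± 0.09 and AOC2 1.08 ± 0.07 after heat. JAZ10 was at -0.35 ± 0.20 in controls, not called, and at -0.78 ± 0.15 after heat.

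**Figure D3:**
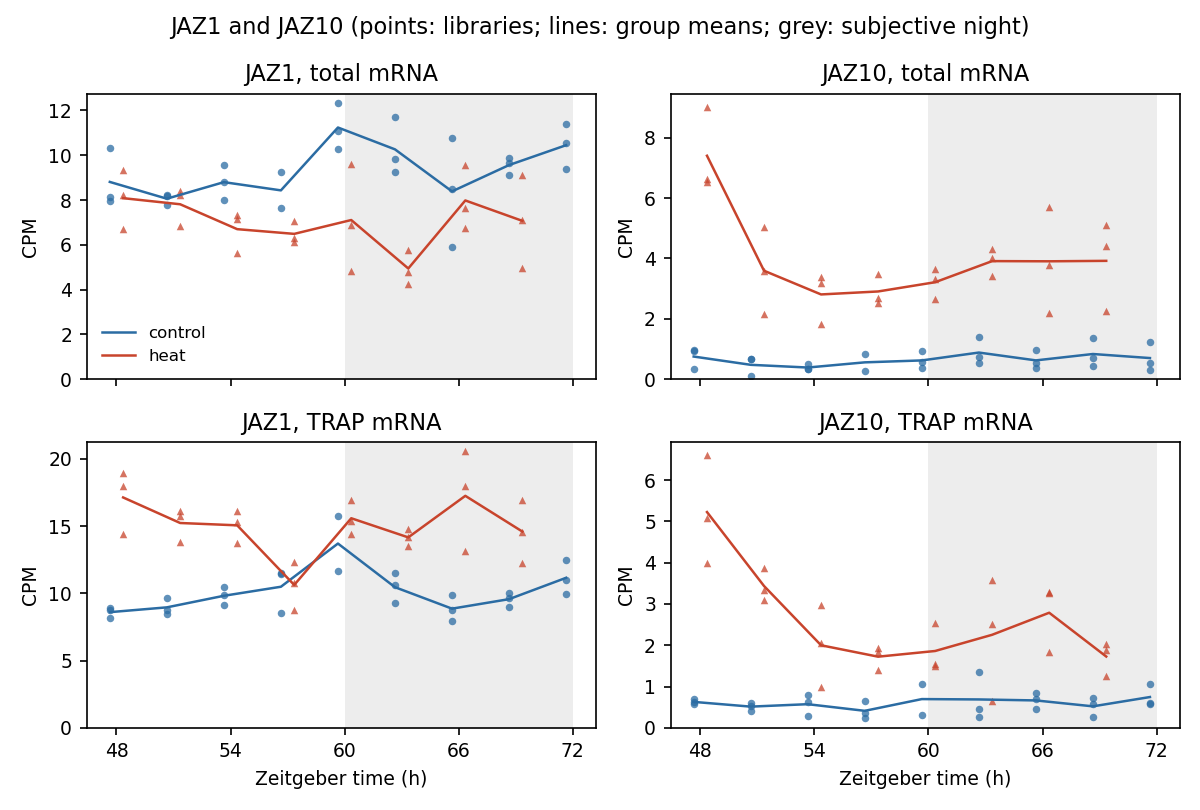
CPM of JAZ1 and JAZ10 against Zeitgeber time in hours in total and TRAP mRNA. Points are libraries, lines join group means and grey marks the subjective night. Heated JAZ1 libraries lay above the controls of their time at 6 of 8 times in TRAP mRNA, and heated JAZ10 libraries lay above the controls of their time at 8 of 8 times in total mRNA.

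The time of day at which heat was given made a called difference for few of the genes. In total mRNA the heat effect of JAZ9 differed over the 8 times (adjusted p = 0.0112, edgeR quasi-likelihood F test), where 3.61% of all genes tested were called, and none of the other 9 genes was called. JAZ9 was close to its control level at ZT51 (0.07 ± 0.15), with 40.2, 34.9 and 34.2 CPM in controls and 30.0, 46.2 and 38.7 CPM after heat. At ZT66 it was at 54.3, 49.9 and 57.8 CPM in controls and 26.1, 26.1 and 29.5 CPM after heat, a change of -1.01 ± 0.17 (adjusted p = 9.91e-07, edgeR quasi-likelihood test). Its mean effect was -0.13 ± 0.08 over ZT48 to ZT57, not called, and -0.70 ± 0.09 over ZT60 to ZT69. This split runs along the change of depth, and no effect of time was called within either block for JAZ9 or the other 9 genes (edgeR; 0 and 1 had an unadjusted p under 0.05, and DESeq2 was not run there), where 1.63% and 0.452% of all genes were. Time and depth cannot be told apart here. The call was also lost without replicate 1 or replicate 3.

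In TRAP mRNA the effect of heat differed over the times for JAZ9 (adjusted p = 1.99e-04), JAZ1 (0.00505), MYC2 (0.0184) and OPR3 (0.0265 by the edgeR quasi-likelihood F test), where 7.04% of all genes tested were called. JAZ9 again ran from 0.16 ± 0.12 at ZT51 to -0.72 ± 0.13 at ZT66. JAZ1 was highest at ZT48 (0.99 ± 0.14) and ZT66 (0.94 ± 0.16) and lowest at ZT57 (-0.00 ± 0.16). MYC2 was at -0.43 to -0.60 at the 4 times from ZT54 to ZT63, each called, and at -0.09 to 0.04 at the other 4 times. Within ZT48 to ZT57 JAZ1 was still called (adjusted p = 0.00936, same edgeR test), where 3.36% of genes were, and within ZT60 to ZT69 none of the 10 genes was called, where 0.944% were (3 had an unadjusted p under 0.05; DESeq2 was not run within blocks). The calls of OPR3 and MYC2 were lost without any 1 of the 3 replicate numbers, that of JAZ1 without replicate 1 or 2 and that of JAZ9 without replicate 1.

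In the recovery experiment OPR3 in both kinds of RNA, AOS in total mRNA and JAZ9 in TRAP mRNA were called in both directions at different times. At 0 h, 4 genes were lower in total mRNA, where 46.1% of all genes tested were called and 23.2% were lower: AOS (-0.94 ± 0.21), AOC1 (-0.92 ± 0.36), OPR3 (-0.77 ± 0.18) and JAZ1 (-0.62 ± 0.22). The call of JAZ1 was lost without replicate 1. At 1 h, 3 were higher, where 19.4% were called and 9.78% were higher: OPR3, JAZ9 and AOS. At 3 h none was called (edgeR quasi-likelihood test; 1 gene had an unadjusted p under 0.05, and DESeq2 called 0), where 1.12% were. At 6 h AOS, AOC1 and AOC2 were lower, where 6.32% were called and 4.04% were lower. The effect of heat differed between the 4 times for 6 of the 10 genes, AOS, AOC1, AOC2, OPR3, JAZ1 and JAZ9, where 41.9% of all genes were called.

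OPR3 was called in opposite directions at 0 h and 1 h in both kinds of RNA. At 0 h its total mRNA was at 16.4, 14.0 and 19.1 CPM in controls and 9.65, 9.89 and 9.44 CPM after heat. At 1 h it was at 17.5, 14.8 and 14.9 CPM in controls and 30.1, 25.0 and 24.9 CPM after heat, so that neither time had an overlap. The changes were -0.77 ± 0.18 (log2 ± SE; adjusted p = 6.75e-04, edgeR quasi-likelihood test) and 0.75 ± 0.16 (adjusted p = 8.28e-04), and the difference over the 4 times had an adjusted p of 4.26e-05. TRAP mRNA of OPR3 did the same, with 21.7, 21.5 and 21.6 CPM in controls against 10.3, 9.25 and 14.7 CPM at 0 h, and 26.4, 24.9 and 21.1 CPM against 49.2, 44.1 and 39.5 CPM at 1 h (-0.92 ± 0.20 and 0.87 ± 0.17). These 4 calls held under each alternative tried.

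AOS followed OPR3 in total mRNA. AOS was at 58.5, 49.6 and 44.6 CPM in controls and 26.1, 25.8 and 27.6 CPM after heat at 0 h, and at 46.1, 46.1 and 50.2 CPM against 75.6, 72.4 and 63.3 CPM at 1 h. The change at 1 h was 0.57 ± 0.19 (adjusted p = 0.04, edgeR quasi-likelihood test), a call lost without replicate 1 or replicate 3. In TRAP mRNA AOS was lower at 0 h (-0.53 ± 0.21, adjusted p = 0.0442 in the same edgeR test; lost under RLE scaling and without replicate 1 or replicate 3) and gave 0.27 ± 0.21 at 1 h, not called. AOC1 was lower at 0 h in both kinds of RNA, calls that were also lost without replicate 1 or replicate 3. LOX2 was not called at any recovery time with all libraries and the settings used here. In total mRNA at 1 h LOX2 gave 0.65 (adjusted p = 0.144, edgeR quasi-likelihood test) and was called under 4 of 10 alternatives. AOC2 gave 0.91 there (0.052 in the same edgeR test), not called, and was called under 6 of 10 alternatives. At 0 h LOX2 (-0.37) and AOC2 (-0.42) were not called, but each was under 3 of 10 alternatives.

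JAZ9 was higher at 1 h in both kinds of RNA. At 1 h its total mRNA was at 44.1, 47.0 and 55.5 CPM in controls and 83.2, 72.7 and 67.5 CPM after heat (0.61 ± 0.13, adjusted p = 9.78e-04, edgeR quasi-likelihood test; lost without replicate 1). In TRAP mRNA JAZ9 was already higher at 0 h, with 94.6, 99.8 and 95.2 CPM in controls and 126, 131 and 141 CPM after heat (0.46 ± 0.13; lost without replicate 3). It was at 0.47 ± 0.13 at 1 h (lost without replicate 2 or replicate 3). At 3 h JAZ9 gave -0.15 ± 0.14 in total and -0.14 ± 0.13 in TRAP mRNA, neither called. At 6 h it gave -0.41 ± 0.14 in total mRNA (adjusted p = 0.0726, edgeR quasi-likelihood test) and was lower in TRAP mRNA, as described below. In TRAP mRNA MYC2 (0.39 ± 0.14) and JAZ10 (1.296 ± 0.458) were called higher at 1 h beside JAZ9 and OPR3, where 24.6% of all genes were called and 12% were higher, but both were lost without any 1 replicate number and with DESeq2. JAZ10 had 4 to 9 reads in these controls and 12 to 21 after heat.

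JAZ10 was not called at 0 h of the recovery experiment. Its total mRNA was at 2.21, 0.278 and 1.72 CPM in controls and 5.26, 1.45 and 2.24 CPM after heat, which overlap, and the change was 1.15 ± 0.50 (adjusted p = 0.0564, edgeR quasi-likelihood test). The time course at ZT54, the same clock time, gave 2.76 ± 0.52. The experiments were scaled apart and this difference was not tested. JAZ1 in TRAP mRNA was likewise not called at 0 h (0.18 ± 0.18, adjusted p = 0.437), beside 0.62 ± 0.15 at ZT54 of the time course. Calls also differed between ZT54 and 0 h in total mRNA. AOC1 (-0.15, then -0.92), OPR3 (-0.28, -0.77) and JAZ1 (-0.40, -0.62) were called at 0 h only. AOC2 (-0.66, -0.42) and MYC2 (-0.38, 0.01) were called at ZT54 only. AOS was called lower at both, and LOX2, JAZ5 and JAZ9 at neither. In TRAP mRNA AOC1 and JAZ9 were called at 0 h only, and MYC2, JAZ5 and JAZ10 at ZT54 only. None of these differences was tested.

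**Figure D4:**
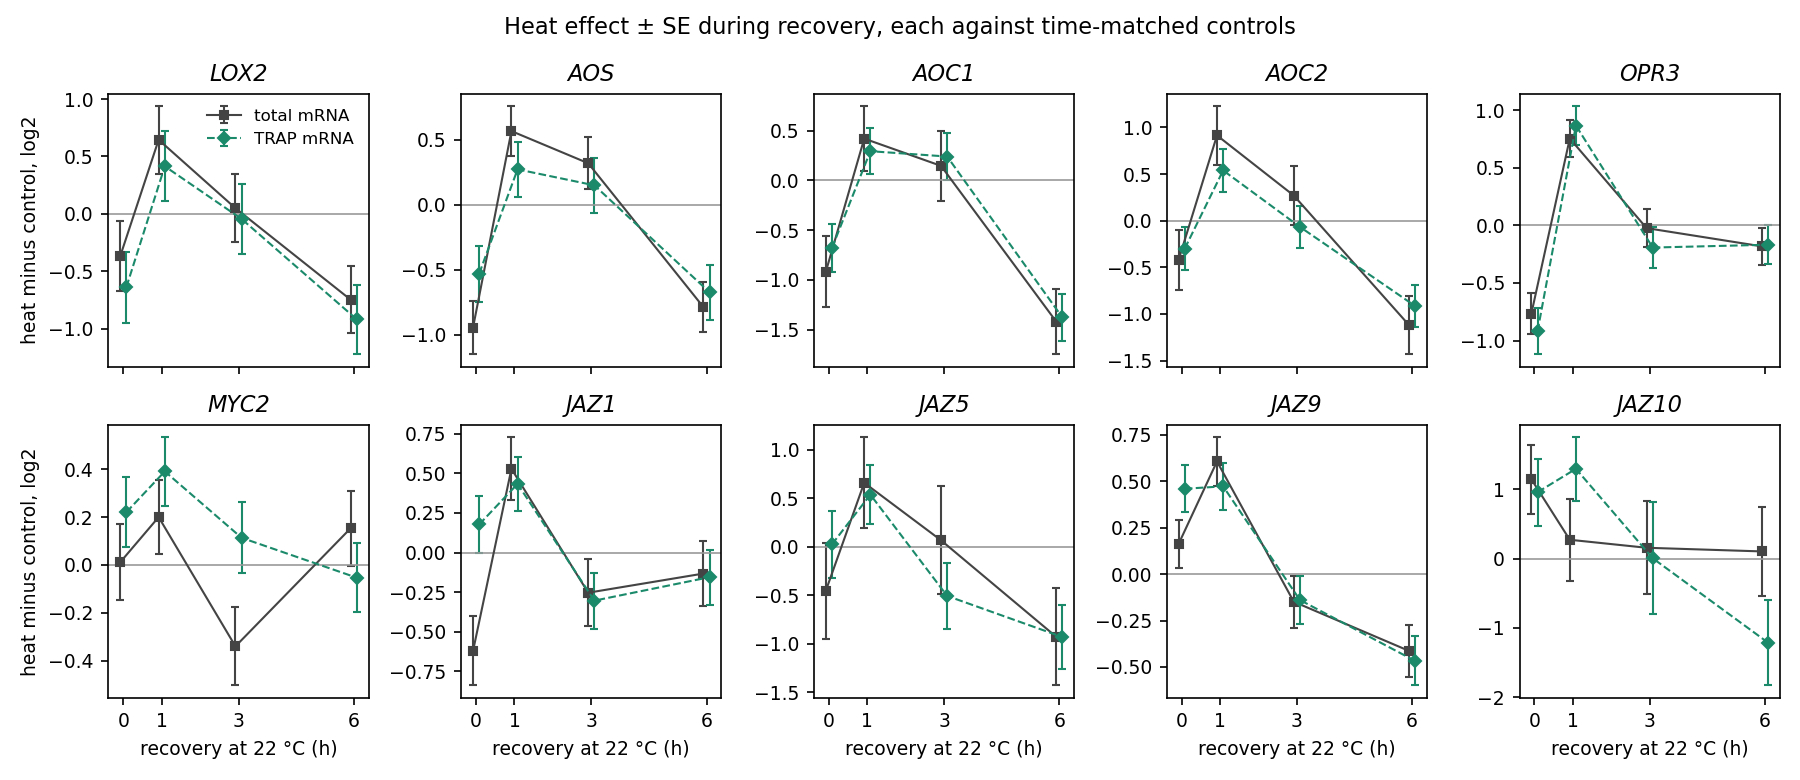
Log2 fold change of heat minus time-matched control, with SE, against hours of recovery at 22 °C for the 10 genes in total and TRAP mRNA. OPR3 crosses from -0.77 at 0 h to 0.75 at 1 h in total mRNA, and AOC1 is at -1.42 at 6 h with all libraries.

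In TRAP mRNA 4 genes were called at 0 h, where 49.9% of all genes tested were, 25.3% lower and 24.6% higher (AOS, AOC1 and OPR3 lower, JAZ9 higher). At 3 h none was called (edgeR quasi-likelihood test; 0 had an unadjusted p under 0.05, and DESeq2 called 0), where 6.46% were. At 6 h AOC1, AOC2 and JAZ9 were lower, where 5.39% were called and 3.37% were lower. The effect of heat differed between the 4 times for 7 genes, AOS, AOC1, AOC2, OPR3, JAZ5, JAZ9 and JAZ10, where 51% of all genes were called.

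The 6 h results turn on which control libraries are used. In total mRNA the 3 controls held 370, 98.3 and 280 CPM of LOX2, 96.8, 40.7 and 93.0 CPM of AOS, 35.3, 12.9 and 41.2 CPM of AOC1 and 360, 112 and 362 CPM of AOC2, in the order of replicates 1 to 3. The heated libraries held 140, 131 and 174 CPM of LOX2, 44.1, 38.5 and 50.5 CPM of AOS, 11.2, 9.29 and 12.7 CPM of AOC1 and 123, 131 and 129 CPM of AOC2. Control replicate 2 lay below the heated libraries for LOX2 and AOC2, among them for AOS and just above them for AOC1, and replicates 1 and 3 lay above them all. With the 3 controls the change was -0.79 ± 0.19 for AOS, -1.42 ± 0.33 for AOC1 and -1.12 ± 0.31 for AOC2 (adjusted p = 0.015, 0.0152 and 0.0418, edgeR quasi-likelihood test), and -0.75 ± 0.29 for LOX2 (0.147). These errors rest on a spread shared by all groups of the fit. The calls of AOS, AOC1 and AOC2 were lost with only the 2 groups compared and without replicate 1 or replicate 3. That of AOC2 was also lost with no filter on low counts. Without control replicate 2 the values were -1.10, -1.79, -1.50 and -1.13 with adjusted p of 2.62e-07 or below. Without control replicates 1 and 3 they were 0.12, -0.23, 0.19 and 0.59, none called, with the lone control assumed to vary like the other groups.

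TRAP mRNA of the same 6 h samples showed the same split. AOC1 was at 83.9, 29.4 and 75.4 CPM in controls and 23.9, 19.9 and 28.2 CPM after heat, and AOC2 at 630, 239 and 637 CPM against 271, 261 and 266 CPM. AOC1 was called at -1.38 ± 0.23 and AOC2 at -0.92 ± 0.23 with all libraries, at -1.71 and -1.24 without control replicate 2, and not at -0.29 and 0.15 without replicates 1 and 3 (adjusted p = 0.611 and 0.859, edgeR quasi-likelihood test). LOX2 gave -0.92 ± 0.30 (adjusted p = 0.0897, edgeR quasi-likelihood test), AOS -0.67 ± 0.21 (0.0637) and JAZ5 -0.93 ± 0.33 (0.106) with all libraries. Without control replicate 2 all 3 were called, at -1.31 (adjusted p = 6.42e-07, same edgeR test), -0.98 (1.59e-05) and -1.10 (0.0352), and without replicates 1 and 3 they were not, at 0.58, 0.27 and -0.49. JAZ9 behaved otherwise: it was at -0.47 ± 0.13 with all libraries, -0.41 without replicate 2 (adjusted p = 0.0588, not called) and -0.57 without replicates 1 and 3 (0.0279 by the same edgeR test). Replicate 2 held the heat-induced trace named above, and the time-course controls of the same clock time, ZT60, had 175 ± 40 CPM of LOX2 and 136 ± 11.3 CPM of AOC2 (SD, n = 3), on a scale set apart. Root marker sums in total mRNA were 701 to 947 CPM in the 6 h controls and 1156 to 1224 CPM after heat, and touch sums 53.0 to 84.4 against 35.04 to 45.6 CPM. The part of these in the 6 h result was not tested.

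**Figure D5:**
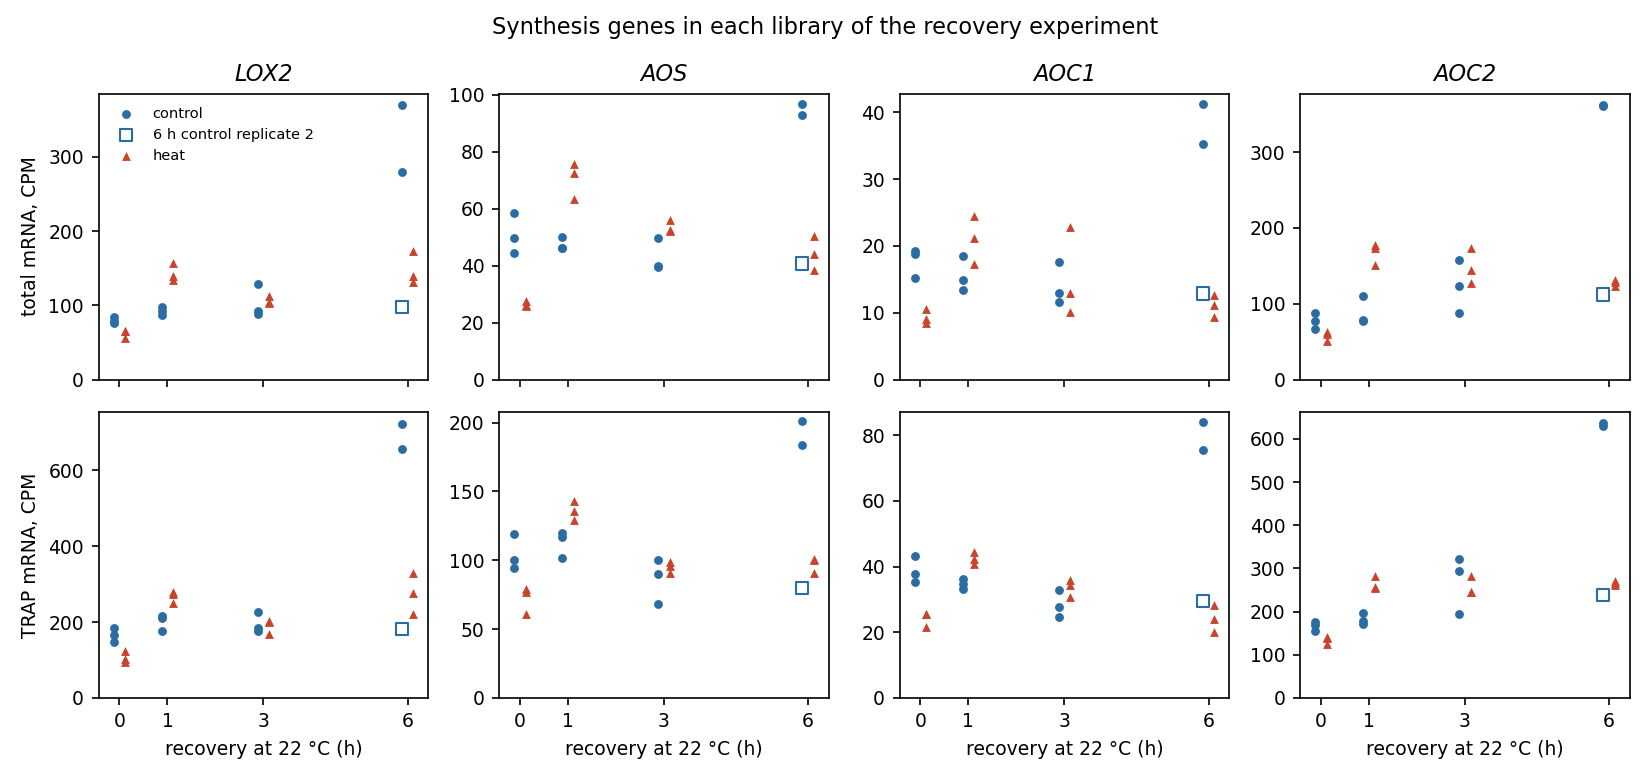
CPM of LOX2, AOS, AOC1 and AOC2 in each library of the recovery experiment against hours at 22 °C, total mRNA above and TRAP mRNA below, with the 6 h control replicate 2 marked. At 6 h that control holds 98.3 CPM of LOX2 in total mRNA, beside 370 and 280 CPM in the other 2 controls.

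Other genes of the pathway were called in both directions. Of 57 other jasmonate genes, 19 were higher, 17 lower, 8 not called and 13 not tested after heat in total mRNA, and 22, 13, 12 and 10 in TRAP mRNA. Of all genes tested 36.9% were higher and 43.9% lower in total mRNA, and 38.1% and 45.5% in TRAP mRNA, so calls in both directions are the background here. By role, the numbers higher and lower in TRAP mRNA were 7 and 3 of 14 other synthesis genes, 4 and 2 of 12 conjugation and turnover genes, 2 and 1 of 3 receptor and corepressor genes, 1 and 3 of 9 other JAZ genes, 4 and 3 of 10 other transcription factor genes and 4 and 1 of 9 responsive genes. Their median change was 0.07 in total mRNA and 0.12 in TRAP mRNA, beside -0.08 and -0.09 for all genes. Several of them have overlapping neighbours in the annotation, and those named here overlap by 211 bases or less.

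Of 14 other synthesis genes 7 were higher, 4 lower, 1 not called and 2 not tested in total mRNA. The plastid lipoxygenase genes LOX3 (-0.90 ± 0.16) and LOX4 (-1.26 ± 0.28, 0 to 22 reads a library) fell, as did OPCL1 (-1.25 ± 0.11), whose product activates the OPR3 product for beta-oxidation. Among the cyclases AOC3 gave -0.26 ± 0.12 and AOC4 rose, at 8.05 to 17.2 CPM in controls and 14.5 to 33.9 CPM after heat (1.06 ± 0.06 in total and 1.04 ± 0.06 in TRAP mRNA). AOC4 therefore went the other way from AOC1, AOC2 and AOC3 in total mRNA, while AOC3 was not called in TRAP mRNA.

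Of the 12 genes that conjugate or break down the hormone, 3 were higher, 3 lower, 2 not called and 4 not tested in total mRNA. CYP94B3, a cytochrome P450 gene that oxidises the active conjugate, did not pass the filter on low counts in the fits of controls alone and was tested because of its heated libraries. It was at 0.121 to 1.21 CPM in 23 controls and 5.50 to 13.0 CPM in 24 heated libraries of total mRNA, with no overlap, and rose by 4.04 ± 0.14 in total mRNA and by 5.21 ± 0.13 in TRAP mRNA, where control counts were 0 to 7. Its relative CYP94B1 rose by 1.50 ± 0.09 in total and 0.66 ± 0.09 in TRAP mRNA. ILL6, an amidohydrolase gene of conjugate breakdown, rose by 1.36 ± 0.07 in total mRNA, from 3.59 to 9.31 CPM in controls to 10.5 to 20.1 CPM after heat, and by 1.97 ± 0.05 in TRAP mRNA. JAR1, which makes the active conjugate, fell from 13.0 to 18.3 CPM to 7.69 to 13.7 CPM (-0.59 ± 0.06), and JMT, a methyltransferase gene, gave -0.81 ± 0.25.

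Receptor, corepressor and repressor genes were split. COI1, the receptor, rose (0.48 ± 0.06 in total, 0.60 ± 0.05 in TRAP mRNA), as did TPL, the corepressor (0.57 ± 0.04 and 0.12 ± 0.03), and NINJA, the adaptor between JAZ proteins and TPL, fell (-0.31 ± 0.05 and -0.24 ± 0.04). Of the 9 other JAZ genes, JAZ12 rose, from 32.0 to 54.8 CPM in controls to 60.6 to 91.8 CPM after heat in total mRNA (0.94 ± 0.04). JAZ2 (-0.28 ± 0.07), JAZ3 (-1.22 ± 0.15), JAZ6 (-0.68 ± 0.07) and JAZ11 (-0.77 ± 0.11) fell, and JAZ4, JAZ7, JAZ8 and JAZ13 were not tested. In TRAP mRNA JAZ2 gave 0.05 ± 0.06, not called, and the other 4 kept their direction. With the 4 members, 2 JAZ genes (JAZ10 and JAZ12) rose in total mRNA, 6 fell, JAZ5 was not called and 4 were not tested. Of all genes tested 36.9% were higher and 43.9% lower there, so these counts by themselves say little about the family.

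Of 10 other transcription factor genes 3 were higher, 4 lower, 2 not called and 1 not tested in total mRNA. MYC3, a relative of MYC2, rose by 0.17 ± 0.05, and MYC4 gave -0.39 ± 0.09 in total and 0.09 ± 0.06, not called, in TRAP mRNA. The repressor genes JAM1 (-0.62 ± 0.09), JAM2 (-0.33 ± 0.08) and JAM3 (-0.56 ± 0.07) fell and NAC055 rose (1.31 ± 0.14). Of 9 jasmonate-responsive genes 3 were higher, 1 lower, 3 not called and 2 not tested. The storage protein gene VSP2 rose by 0.48 ± 0.08, CORI3 by 0.37 ± 0.09 and TAT3, an aminotransferase gene, by 2.54 ± 0.25 at 0 to 33 reads a library. TAT3 did not pass the filter on low counts in total mRNA controls alone and was tested there because of its heated libraries. In TRAP mRNA TAT3 gave 0.79 ± 0.45 (adjusted p = 0.107, edgeR quasi-likelihood test), not called. CLH1, a chlorophyllase gene, fell in total mRNA (-1.14 ± 0.06).

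Genes with the most similar pattern were taken by Pearson correlation of log2 CPM over the 17 group means of total mRNA, which share their heat and time structure. JAZ10 was closest to GFA2 (0.989) and AT1G20220 (0.989), AOS to ENODL2 (0.981) and GGP1 (0.973), AOC2 to SIG4 (0.979) and AT1G54410 (0.956), and LOX2 to AT1G78020 (0.976) and AT4G12830 (0.963). OPR3 was closest to FC2 (0.967) and CNGC4 (0.953), JAZ9 to UGT74D1 (0.953) and VTC2 (0.950), AOC1 to UBQ5 (0.945) and LOX1 (0.939), JAZ1 to NADK1 (0.917) and PUR5 (0.910) and JAZ5 to AT1G62170 (0.897) and EB1B (0.890). MYC2 was closest to its overlapping neighbour AT1G32630 (0.961), then AT1G26450 (0.946).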

How the data were processed

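Total and TRAP mRNA were read from 2 tables of raw counts per gene as the authors deposited them, 1 with the 100 libraries of the time course and 1 with the 48 of the recovery experiment. Per the submitters' processing notes, reads were processed with cutadapt, FastQC and HISAT2 2.2.0 on TAIR10; which tool counted them, on which annotation and with which strand setting is not given in the sources used here. Reads from stretches where genes overlap therefore cannot be told apart. Of the 10 genes, JAZ10 is also overlapped: AT5G02045 on the opposite strand covers 71 of its 2292 bases and had 0 or 1 reads a library. Per the labels' protocols libraries were amplified by PCR, and no molecular identifiers are named. Gene symbols, loci and upstream sequences came from RefSeq TAIR10.1, which 37751 of 38194 identifiers matched.

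Samples were grouped from the labels. In R 4.3.3, edgeR 4.0.16 was used with filterByExpr (minimum count 10, minimum total 15), TMM scaling and a robust quasi-likelihood fit of group means over all total mRNA or all TRAP libraries of an experiment, or over both together for their difference. Tests were two-sided, adjusted by Benjamini-Hochberg over all genes tested and called at an adjusted p below 0.05. F tests covered the 8 times, the 4 recovery times and a 24 h cosine. Log2 CPM used a prior count of 2. The tests were tried on simulated counts. Library pairs of a group were compared, and none agreed within sampling noise.

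The 10 genes, the pathway lists and the markers were chosen with earlier results of these data known. Other genes named were COI1, JAR1, MYC3, MYC4, LOX3, LOX4, AOC3, AOC4, VSP2, every JAZ gene, up to 3 called genes with the largest mean heat effect per pathway list and kind of RNA, of which some are given as counts only, and the 2 genes most like each of the 10 (mean log2 CPM of at least 1). Alternatives were DESeq2 1.42.0, RLE scaling, no filter (minimum count 1), a replicate block, only the groups compared, the depth blocks, library size as a covariate or ZT48 to ZT69 only for waves, leaving out each replicate, and leaving out controls with a heat-induced trace. Leaving out 6 h controls of the recovery experiment was chosen after seeing the data.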

Additional observations from a re-analysis of the deposited data

Results flagged for a closer look

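Differences of the heat effect between kinds of RNA, times or recovery times were tested for the 10 genes, and those past the threshold are listed here by value. The mean heat effect was higher in TRAP than in total mRNA, in log2 units, by 0.982 for JAZ1, 0.586 for AOC1, 0.475 for AOC2, 0.322 for LOX2, 0.252 for JAZ9 and 0.203 for AOS. The heat effect differed over the 8 times in total mRNA for JAZ9 (adjusted p = 0.0112, edgeR quasi-likelihood F test), and in TRAP mRNA for JAZ9 (1.99e-04), JAZ1 (0.00505), MYC2 (0.0184) and OPR3 (0.0265). It differed over recovery in total mRNA for OPR3 (adjusted p = 4.26e-05, same edgeR test), AOS (7.52e-05), JAZ9 (3.29e-04), AOC2 (0.00719), AOC1 (0.0103) and JAZ1 (0.0125). In TRAP mRNA it differed over recovery for OPR3 (adjusted p = 3.77e-05, same edgeR test), JAZ9 (1.83e-04), AOC1 (5.23e-04), AOC2 (0.00603), AOS (0.0191), JAZ10 (0.0374) and JAZ5 (0.0394). The difference of JAZ10 was lost without any 1 replicate number and without the 6 h control replicates 1 and 3, and that of JAZ5 under these and under DESeq2 and the replicate block. With 1 replicate number left out, the differences over recovery were also lost for AOC1 and AOC2 (without 1 or 3) and JAZ1 (without 1 or 2) in total mRNA. In TRAP mRNA they were lost for AOS and AOC2 (without 1 or 3), AOC1 (without 1) and JAZ9 (without 3).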

How the results depend on the processing

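DESeq2 kept 331 of 344 member results on their side of the threshold, RLE scaling 338 of 349, no filter 343 of 349, and leaving out replicate 1, 2 or 3 kept 292 of 343, 311 of 349 and 302 of 349. Replicate numbers paired heat with control libraries at ZT51 only, where all 3 pairs of each kind of RNA had deviations correlated over 0.1. The replicate block changed no member call at ZT51. That block is shared by all times of a fit, so it cannot test a pairing held at ZT51 alone. At other times the heat and control libraries shared only a number (over 0.1 in 4 of 23, 5 of 23, 1 of 12 and 0 of 12 pairs in all). The block lost 7 and gained 2 of 349 member calls. The lost ones were JAZ9 at ZT60, AOC1 at 0 h and AOC2 at 6 h in total mRNA, and AOS at 0 h, MYC2 at 1 h, the wave of JAZ1 and the recovery change of JAZ5 in TRAP mRNA. It gave 9 recovery calls in total and 9 in TRAP mRNA, 6 recovery changes and 8 waves in TRAP mRNA, and 52 and 42 single-time calls. Of the main member counts, those of heat by time were 1 in total and 4 in TRAP mRNA; they were 0 and 1 in the block ZT48 to ZT57, 0 and 0 in the later block, and 0 to 1 and 0 to 2 with 1 replicate left out. The 10 genes called for mean heat in TRAP mRNA were 6 within ZT48 to ZT57, where JAZ9 reversed to 0.11. Recovery calls were 10 in total and 11 in TRAP mRNA, 16 and 16 without the 6 h control replicate 2, and 3 to 13 and 2 to 12 with 1 replicate left out; recovery changes (6 and 7) were 3 to 6 and 2 to 6. Without 6 h control replicates 1 and 3, the 6 h values reversed for AOS (0.12), AOC2 (0.19), PDF1.2A (0.35) and CORI3 (1.27) in total mRNA and for AOC2 (0.15), PDF1.2A (0.52), CLH1 (0.10) and NATA1 (1.86) in TRAP mRNA. Over all genes, heat by time fell from 767 to between 318 and 450 with 1 replicate left out and to 347 and 96 within the blocks (TRAP mRNA 1484, then 502 or more, 708 and 199), and calls at 6 h went from 1296 to 2614 without control replicate 2 and 260 without replicates 1 and 3 (TRAP mRNA 1105, 2662 and 379). Calls at 1 h went from 3981 to as few as 2050 with 1 replicate left out (TRAP mRNA from 5038 to 2347, and 7820 with only the 2 groups), those at 3 h from 229 to 43 and 140 without replicate 1 or 2 and up to 465 otherwise (TRAP mRNA from 1325 to 103 at the least), and recovery changes from 8596 to 5233 (TRAP mRNA from 10464 to 6053). With only the 2 groups, 6 h calls were 254 and 186, and with 1 replicate left out as few as 130 and 74. The causes were not tested. Leaving out the 3 total mRNA controls with a heat-induced trace kept 87 of 90 member results on their side of the threshold. It lost the calls of AOC1 at ZT48 and of JAZ9 at ZT48 and ZT60. Low counts limit JAZ5 and JAZ10.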
